A study of Mus musculus with 4 samples.

Results

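A set of 10 immediate early genes was followed across single-cell libraries of mouse cortex that had been dissociated in the presence of transcription and translation inhibitors. They were Fos, Fosb, Jun, Junb, Jund, Egr1, Atf3, Ier2, Dusp1 and Nr4a1, chosen by symbol, and all 10 were found among the 32227 genes counted. The cells came from the cortex of wild-type mice at postnatal day 15 and had been selected with CD11b beads, CD11b being an integrin of the microglial and myeloid surface. The mice had received, at P0 or P1, an intracortical adeno-associated virus that expressed either mCherry-CAAX, a membrane-bound red fluorescent protein, or Hevin, a protein secreted by astrocytes, in both cases from the astrocyte promoter GfaABC1D. There were 2 mCherry libraries and 2 Hevin libraries, made with PIPseq v4.0PLUS, a droplet method that tags each captured RNA molecule with a unique molecular identifier (UMI). The labels give neither the number nor the sex of the animals behind a library and do not say whether replicates came from separate animals. The p-values therefore speak for these libraries alone, whose spread may be technical, and they also draw on a spread pooled over genes.

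All 4 libraries received the inhibitors, so no comparison with untreated tissue was possible here. Actinomycin D (5 µg/mL) and triptolide (10 µM), which block transcription, were in the perfusate, and anisomycin (27.1 µg/mL), which blocks translation, was added to them for dissection and enzymatic dissociation. No inhibitor is named for the steps after the enzymes were washed off. Immediate early genes are those whose transcription starts within minutes of a stimulus and without new protein synthesis, because the factors that start it, among them serum response factor with its ternary complex partners and CREB, are already in the cell and are switched on by MAP kinases and calcium. Most of their messenger RNAs decay quickly. Enzymatic dissociation of brain tissue is a known trigger of these genes in microglia.

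The members fall into 4 roles. Fos, Fosb, Jun, Junb, Jund and Atf3 encode basic leucine zipper proteins that pair to form AP-1 and related transcription factors. Egr1 encodes a zinc finger transcription factor, and Nr4a1 an orphan nuclear receptor. Dusp1 encodes a phosphatase that switches off MAP kinases, and Ier2 a nuclear protein whose molecular role is less well defined.

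The stretches upstream of the start site are printed for 4 members whose levels are described below, because letters of a CREB/ATF-type site or an EGR-type site lie close to the start in each. RefSeq promoters (GRCm38.p6, the assembly that mm10 denotes) were found for 8 of the 10 members. Each line gives the 200 bases before the annotated start, 5′ to 3′ on the gene's strand. Capitals mark TGACGT, TGACGTCA, GCGNGGGCG or TATAA on either strand.
Fos, chr12:85473690-85473889, + strand: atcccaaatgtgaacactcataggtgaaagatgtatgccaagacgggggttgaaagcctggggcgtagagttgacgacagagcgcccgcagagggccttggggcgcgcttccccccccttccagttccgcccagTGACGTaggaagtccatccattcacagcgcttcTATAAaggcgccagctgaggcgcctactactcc
Dusp1, chr17:26508473-26508672, - strand: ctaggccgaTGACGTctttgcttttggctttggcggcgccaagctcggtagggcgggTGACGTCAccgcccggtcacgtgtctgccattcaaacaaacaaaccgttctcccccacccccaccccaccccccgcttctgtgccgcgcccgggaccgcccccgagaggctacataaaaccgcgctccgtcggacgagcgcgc
Atf3, chr1:191183334-191183533, - strand: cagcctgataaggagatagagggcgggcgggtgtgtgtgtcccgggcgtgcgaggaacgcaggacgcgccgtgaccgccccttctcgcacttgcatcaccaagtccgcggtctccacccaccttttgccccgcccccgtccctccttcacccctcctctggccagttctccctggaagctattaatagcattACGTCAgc
Nr4a1, chr15:101266646-101266845, + strand: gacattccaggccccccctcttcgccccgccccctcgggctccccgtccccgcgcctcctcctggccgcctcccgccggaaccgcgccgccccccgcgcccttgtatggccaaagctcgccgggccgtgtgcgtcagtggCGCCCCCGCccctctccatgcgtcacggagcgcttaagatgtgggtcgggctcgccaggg

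TGACGT, the core of the CREB/ATF site, was present at position 66 before the start of Fos and at position 8 before that of Atf3. For Dusp1 it began 191, 143 and 141 bases before the start, the last pair being the overlapping strands of a full TGACGTCA at 143. GCGNGGGCG, the pattern bound by EGR proteins, began 60 bases before the start of Nr4a1 and 50 bases before that of Fosb. TATAA began 33 bases before the start of Fos. Of the 32851 promoters in the same table, 5.854% held TGACGT in this window, 1.47% held TGACGTCA, 4.277% held GCGNGGGCG and 18.55% held TATAA. The AP-1 pattern TGANTCA (5.479% of promoters) and the CArG box of serum response factor (1.184%) were not in these windows for any of the 8 members. A match describes letters and shows no binding.

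In the mm10 annotation (GENCODE M21), Fos lies at chr12:85473890-85477273 on the plus strand, with up to 4 exons in a transcript. Atf3 lies at chr1:191170296-191218039 and Dusp1 at chr17:26505590-26562128, both on the minus strand and with annotated ends that run well upstream of the RefSeq starts used above. Nr4a1 lies at chr15:101254269-101274795 on the plus strand, and its annotated start also lies well upstream of the RefSeq start used above. The window searched for Jund, chr8:70697539-70697738, ended well before the annotated gene, which starts at 70698949. Jun, Junb and Jund each overlapped 1 counted gene on the opposite strand (Junos, Prdx2 and Gm11175). Dusp1 overlapped Ergic1 and AC122252.1, 1 on the opposite strand and 1 on its own. Whether counting used strand is not given in the sources used here, so reads of opposite-strand pairs may not be separable. Strand would not separate reads of the same-strand pair of Dusp1. The counts of Jun, Junb, Jund and Dusp1 carry these limits throughout.

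The libraries held 17833 and 10849 kept cells for mCherry and 19653 and 13036 for Hevin, with between 49781430 and 67832685 UMIs over all barcodes of a library. The median UMIs per kept cell were 3350 and 4037 for mCherry and 2329 and 3494 for Hevin, so Hevin replicate 1 was the shallowest library. Of 61686 barcodes, 21 occurred in more than 1 library. Sparcl1, the gene of Hevin, stood at 123 and 91.4 CPM over all kept cells for mCherry and at 86.4 and 78.4 CPM for Hevin (CPM being the UMIs of a gene per 1000000 UMIs of the cells summed), in a selection that holds few astrocytes. In astrocyte-gated cells, where the promoter of the virus is active, it was at 5574 and 6815 CPM for mCherry (68 and 24 cells) and at 5298 and 9952 CPM for Hevin (60 and 20 cells). These values overlap, so overexpression of the gene did not show in the libraries labelled Hevin, and whether the viral transcript would be counted is not given in the sources used here.

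Cells were placed in classes by summed UMIs of fixed marker genes, none of them a member, with thresholds set after the marker distributions had been seen. Microglia-gated cells (P2ry12, Tmem119, Sall1, Siglech, Slc2a5 and Gpr34) numbered 15391 and 9361 for mCherry replicates 1 and 2, and 6437 and 5718 for Hevin. Border-associated-macrophage-gated cells (Mrc1, Lyve1, Cd163, F13a1 and Cbr2) numbered 1207, 794, 992 and 748 in the same order. Cells with at least 10000 CPM of Apoe and no other gate, called Apoe-high here, numbered 82 and 43 for mCherry but 9745 and 5334 for Hevin. Cells over both this gate and the microglial gate, 89 and 44 for mCherry and 783 and 437 for Hevin, were left out of both classes. Cells of the other classes stayed there even when over the Apoe gate. Endothelial-gated cells, which a CD11b selection should remove, numbered 292, 173, 295 and 149, and myeloid cells high in MHC class II genes 176, 107, 265 and 185. The microglial gate had 3858 of 61371 kept cells within a factor of 1.2 of its threshold, the Apoe gate 1884 and the macrophage gate 352. Itgam, which encodes CD11b, stood at 414 to 828 CPM over all kept cells of a library, and at 62.4 to 172 in endothelial-gated cells.

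Over a whole library, the 10 genes together took about the same small share of the RNA in every library. They summed to 215 and 220 CPM for mCherry replicates 1 and 2 and to 219 and 222 CPM for Hevin, from 10953 to 14560 member UMIs a library. The groups overlap. Between 38.2% and 52.2% of kept cells of a library held at least 1 UMI of any member, and 2.39% to 4.71% held 3 or more members. After each cell was thinned to 1000 UMIs, which puts the libraries on the same depth, the cells with any member made up 17.6% and 17.97% for mCherry, against 18.8% and 18.1% for Hevin. Thinning left out 336 shallower cells, all of Hevin replicate 1. Free RNA gives UMIs to cells that do not express a gene, and none of the gated classes can be taken to lack these genes, so the background share could not be set here.

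The first comparison asked whether the members differed between Hevin and mCherry libraries over all kept cells. Dusp1 was higher in the Hevin libraries and was the single member of 10 that passed edgeR's quasi-likelihood test (Benjamini-Hochberg adjusted p below 0.05). Among all 19119 genes tested, 11.1% passed in either direction. On the scale used for this test (CPM after TMM scaling, which sets libraries to a common level by a trimmed mean of gene ratios), Dusp1 stood at 25.4 and 23.1 for mCherry and at 31.0 and 32.4 for Hevin. The groups did not overlap, and the log2 fold change was 0.39 ± 0.08 (SE, n = 2 against 2, edgeR adjusted p = 0.0305). The call was lost with total-count scaling (log2 0.27, adjusted p = 0.101), among cells with 3000 or more UMIs (0.42, adjusted p = 0.0691), without mCherry replicate 2 (0.32, adjusted p = 0.154) and without Hevin replicate 2 (0.35, adjusted p = 0.0732).

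Fos, the partner of Jun proteins in the classical AP-1 dimer, was at 5.45 and 5.06 for mCherry and at 6.92 and 7.74 for Hevin. Both Hevin values lie above both mCherry values, but the log2 fold change of 0.48 ± 0.14 missed the threshold (edgeR adjusted p = 0.0735). Junb, Atf3, Ier2 and Nr4a1 likewise had groups that did not overlap, with Hevin above, and log2 fold changes of 0.18, 0.31, 0.29 and 0.27 that did not pass (edgeR adjusted p = 0.153, 0.128, 0.180 and 0.337). With Fos and Dusp1 that makes 6 of 10 members, where 27.6% of all genes tested had both Hevin values above both mCherry values. Egr1 was the one member with a negative value: 8.15 and 10.3 for mCherry, 5.98 and 8.51 for Hevin, log2 −0.35 ± 0.20 (adjusted p = 0.367). These Egr1 groups overlap. Fosb, Jun and Jund gave log2 values of 0.17, 0.05 and 0.02 with overlapping groups. With total-count scaling the median over all genes was −0.11 on the log2 scale instead of 0.002, and the values of Jun and Jund turned to −0.07 and −0.10, both above that median.

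The makeup of the libraries moved with this comparison: Apoe-high cells were 0.460% and 0.396% of kept mCherry cells and 49.6% and 40.9% of kept Hevin cells. Without Apoe-high cells, Dusp1 gave a log2 fold change of 0.56 (edgeR adjusted p = 0.0378), still the single member to pass (1.16% of 18485 genes did), and Egr1 turned to 0.07. The remaining cells numbered 17751 and 10806 for mCherry and 9908 and 7702 for Hevin, with 1207, 794, 992 and 748 border-associated macrophages. These macrophages and endothelial cells, which carry more Dusp1 than microglia, were thus a larger share of the Hevin remainder. The part of this shift in the Dusp1 value was not tested. In bulk sums of this kind, more cells with a transcript and more transcript per cell cannot be told apart. The shares of cells with a UMI of Dusp1, at 1000 UMIs per cell, were 1.80% ± 0.24 (SD, n = 2) for mCherry and 2.45% ± 0.24 for Hevin. An exact two-sided permutation test gave p = 0.33, the smallest p that 2 against 2 libraries allow. Unthinned, the shares were 6.71% and 7.42%. At this common depth 6 of the 10 members had the higher mean share in Hevin, and without thinning 3 did.

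**Figure D1:**
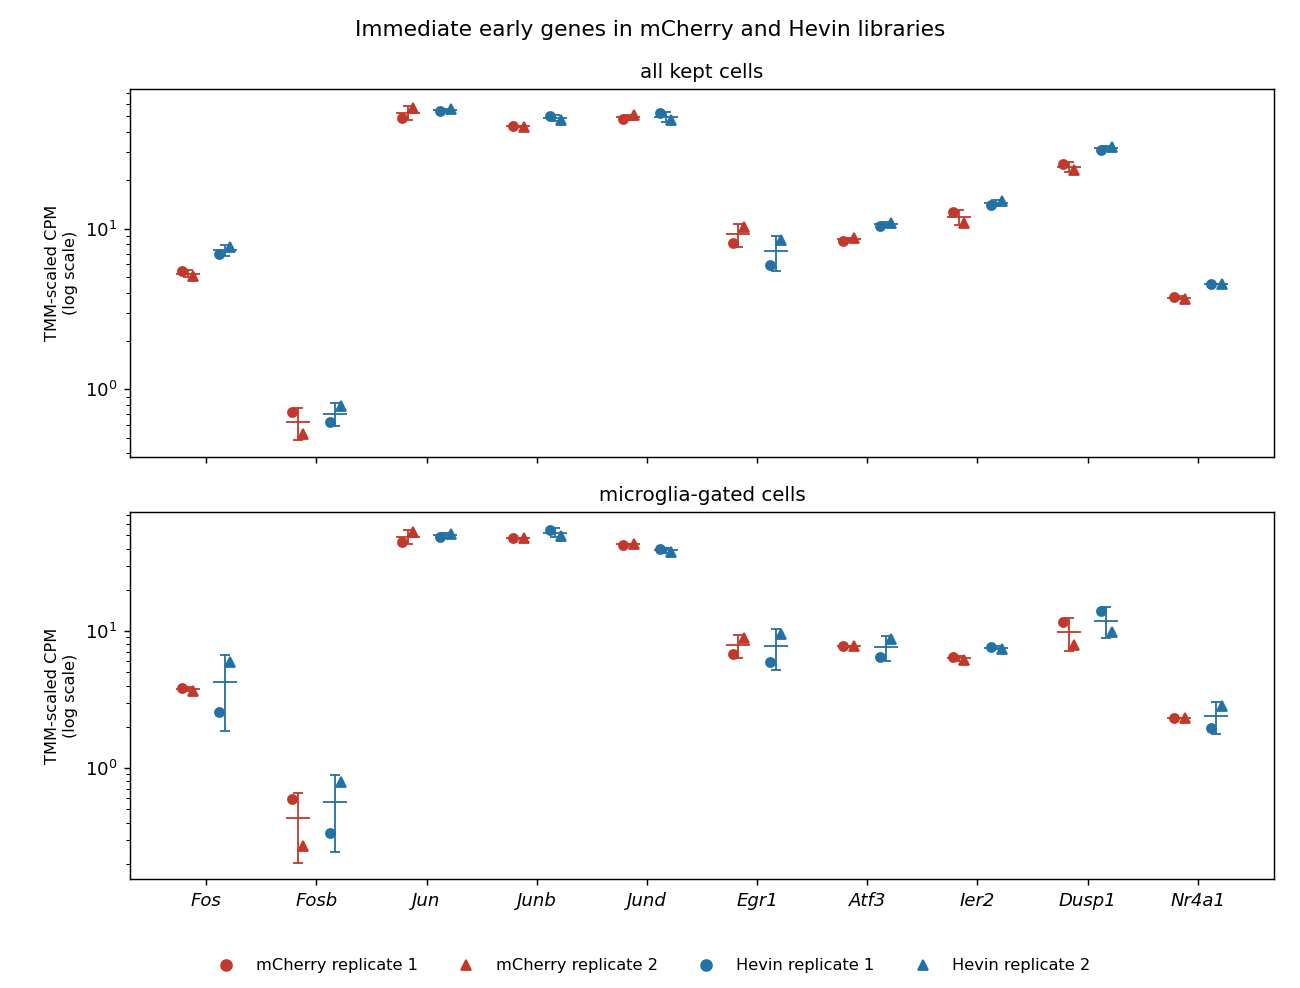
TMM-scaled CPM (log axis) of the 10 genes in each library, over all kept cells (top) and microglia-gated cells (bottom). Points are libraries, horizontal marks the mean of 2 and bars the SD. Dusp1 sits at 23.1 to 25.4 in mCherry and 31.0 to 32.4 in Hevin libraries over all kept cells, whereas in microglia-gated cells its groups overlap.

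Within microglia-gated cells, no member passed the test between Hevin and mCherry (0 of 10, edgeR), and of all 17136 genes tested 0 passed (percentage called 0), with 937 genes at an unadjusted p below 0.05. DESeq2 also called 0 members, but it called 127 of the 17136 genes (0.741%). Log2 fold changes ran from −0.15 ± 0.08 for Jund to 0.40 ± 0.59 for Fosb, and the Fosb value turned to −0.38 without Hevin replicate 2. Jund, the AP-1 member that many cells express constitutively, was at 42.7 and 43.2 TMM-scaled CPM in mCherry microglia and at 39.8 and 37.7 in Hevin microglia. Its groups did not overlap, but the difference did not pass (adjusted p = 0.977). The groups of Junb and Ier2 did not overlap either, with Hevin above (log2 0.14 and 0.26, adjusted p = 0.997 for both). Groups without overlap in either direction were thus found for 3 of 10 members and for 32.7% of all genes tested. Fos was at 3.86 and 3.67 in mCherry microglia and at 2.56 and 5.96 in Hevin microglia, where Hevin replicate 1 was lowest and Hevin replicate 2 highest. Dusp1 stood at 11.6 and 7.93 against 14.0 and 9.83, with overlapping groups. Jun, Egr1, Atf3 and Nr4a1 gave log2 values of 0.04, −0.01, −0.02 and 0.06, also with overlapping groups.

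Border-associated-macrophage-gated cells gave 0 called members of the 8 tested for Hevin against mCherry, where 0.381% of 12081 genes passed (934 genes had an unadjusted p below 0.05). Fosb and Nr4a1 had too few UMIs there to be tested. Log2 fold changes ran from −0.33 ± 0.39 for Atf3 to 0.34 ± 0.17 for Junb, with Fos at 0.30, Jun at 0.14, Jund at 0.19, Egr1 at −0.09, Ier2 at 0.11 and Dusp1 at 0.20. The test of whether the Hevin effect differed between these macrophages and microglia called 0 of 10 members by edgeR, against 0.331% of 15102 genes. Jund had the smallest unadjusted p (0.00906), with a difference of 0.34 ± 0.11 on the log2 scale and an adjusted p of 0.548. The differences of the others ran from −0.92 ± 0.91 for Fosb to 0.40 ± 0.56 for Nr4a1, with Fos at 0.14, Jun at 0.10, Junb at 0.20, Egr1 at −0.10, Atf3 at −0.31, Ier2 at −0.15 and Dusp1 at −0.06. In endothelial-gated cells 0 of 8 tested members passed (0.275% of 10564 genes did, and 616 genes had an unadjusted p below 0.05). Fos and Fosb had too few UMIs to be tested, and Jun, Junb, Jund, Atf3, Ier2 and Nr4a1 gave log2 values of −0.07, 0.32, −0.03, 0.59, 0.23 and 0.09. There Hevin replicate 2 stood apart: Egr1 was at 48.6 TMM-scaled CPM against 12.2 in Hevin replicate 1 and 12.4 and 25.6 in the mCherry libraries. Dusp1 was at 299 in that library and between 161 and 193 in the others. The log2 values of 0.76 ± 0.47 for Egr1 and 0.38 ± 0.22 for Dusp1 became −0.56 and −0.13 without Hevin replicate 2. Without Hevin replicate 1 they became 1.44 and 0.77. Each of these fits leaves a lone Hevin library, whose spread is assumed and not measured, so no calls are given for them.

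The larger differences lay between cell classes of the same library. The levels in the next paragraphs are plain CPM, summed over a class in a library, and the tests compare class sums with the library as a block. Levels are compared within a gene and not between genes, since no scaling by transcript length was made.

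**Figure D2:**
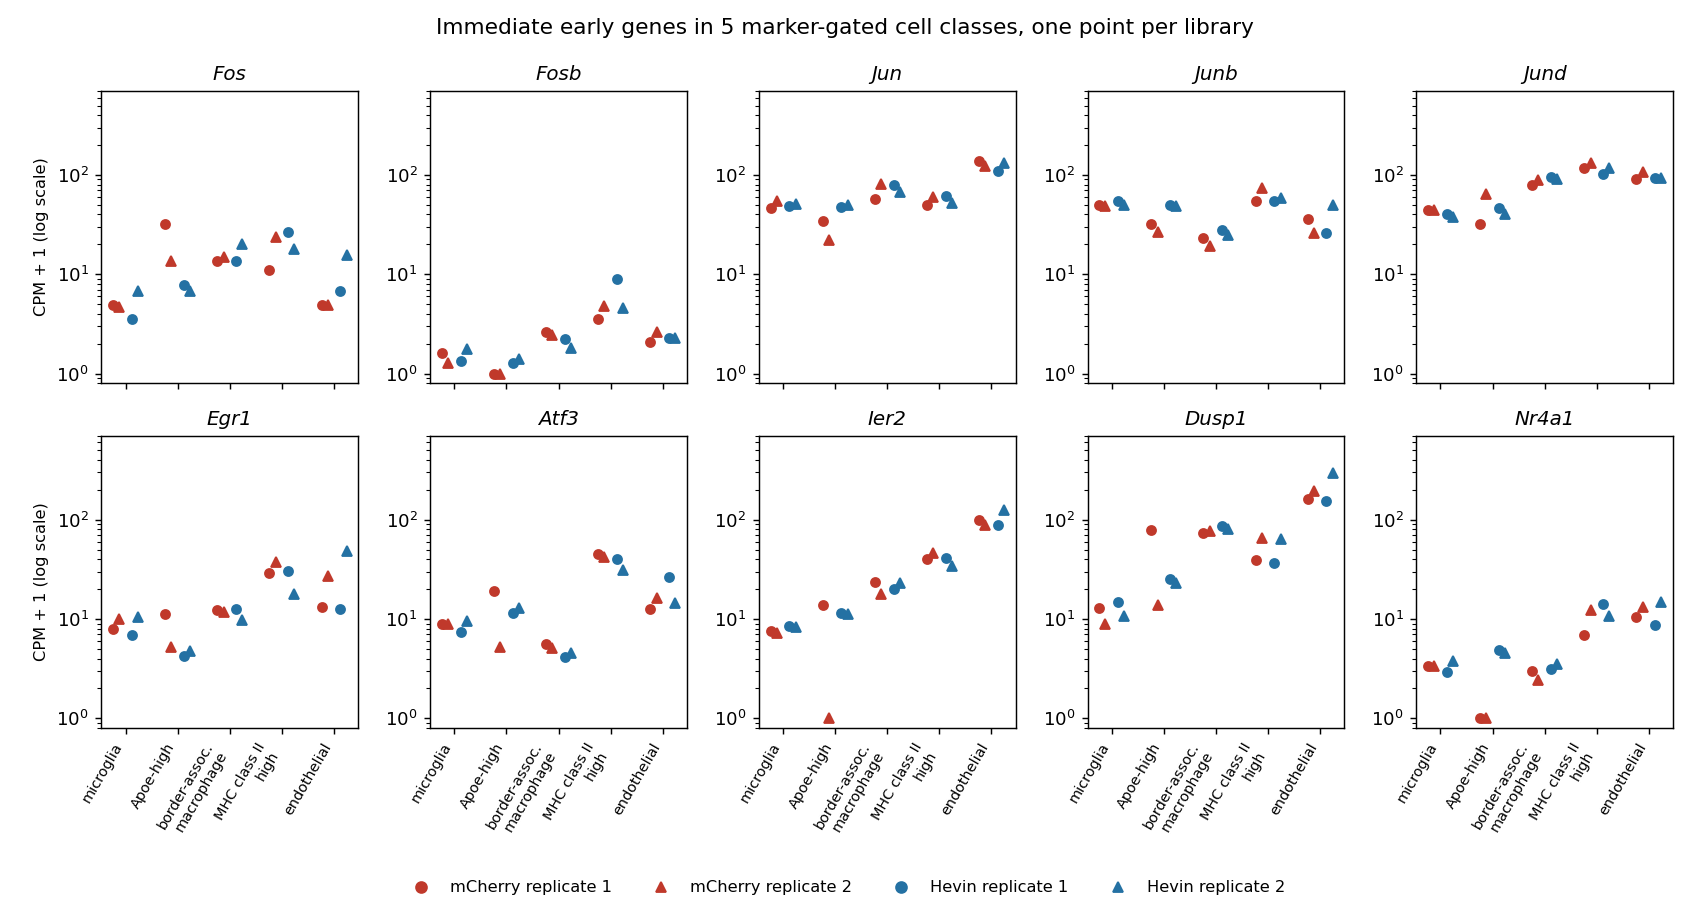
CPM plus 1 (log axis) of the 10 genes in 5 marker-gated classes, with a point for each library, in red for mCherry and blue for Hevin. Dusp1 and Ier2 are highest in endothelial cells and lowest in microglia in the Hevin libraries and in mCherry replicate 1, and Junb is lower in border-associated macrophages than in microglia in every library.

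Endothelial-gated cells carried the highest levels of Dusp1, Ier2 and Jun of these 5 classes. Dusp1 was at 162 and 194 CPM in mCherry and at 154 and 294 CPM in Hevin endothelial cells, against 11.9, 8.02, 13.8 and 9.65 in microglia. Every endothelial value was above every microglial one, and the log2 fold change was 4.03 ± 0.19 (edgeR adjusted p = 1.89e-08, higher in 4 of 4 libraries). Ier2 was at 98.6 and 86.8 in mCherry and 87.6 and 124 in Hevin endothelial cells, against 6.20 to 7.57 in microglia, log2 3.68 ± 0.10 (adjusted p = 2.6e-10). Nr4a1 rose by 2.02 ± 0.21 on the log2 scale, Egr1 by 1.35 ± 0.23, Jun by 1.19 ± 0.08, Jund by 1.06 ± 0.07 and Atf3 by 0.87 ± 0.24, each in 4 of 4 libraries. Junb fell by 0.74 ± 0.14 on that scale, from 47.9 to 54.2 CPM in microglia to 25.3 to 48.4 in endothelial cells. Fos (log2 0.51) and Fosb (1.21) did not pass (adjusted p = 0.152 and 0.0888).

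In this comparison 7 of 10 members passed as higher and 1 as lower, where 30.2% of all 15318 genes passed as higher and 33.9% as lower. The members' median log2 fold change was 1.2, against −0.10 for all genes. Endothelial cells were also deeper, with median UMIs of 3714 to 6195 against 2079 to 3954 in microglia. Cldn5, an endothelial junction gene, stood at 4546 to 4962 CPM there and the microglial gene P2ry12 at 250 to 805. The part of depth and of free RNA in these differences was not tested.

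Border-associated macrophages, the resident macrophages of the meninges and perivascular spaces, also differed from microglia in most members. Fos was at 12.7 and 14.0 CPM in mCherry and at 12.7 and 19.1 in Hevin macrophages, against 2.52 to 5.85 in microglia. The classes did not overlap, and Fos rose by 1.72 ± 0.15 in log2 (edgeR adjusted p = 5.4e-07). Dusp1 was at 71.8, 76.0, 85.2 and 80.2 in the order mCherry 1, mCherry 2, Hevin 1 and Hevin 2, a rise of 2.72 ± 0.11 over microglia (adjusted p = 3.81e-10). Ier2 rose by 1.41 ± 0.12, Jund by 0.92 ± 0.07 and Jun by 0.35 ± 0.07, each in 4 of 4 libraries. Fosb rose by 1.28 ± 0.44 (adjusted p = 0.0255) from levels near 1 CPM, and lost the call when mCherry replicate 1 (adjusted p = 0.0918), mCherry replicate 2 (0.104) or Hevin replicate 1 (0.0552) was left out.

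2 members of the AP-1 family went the other way in these macrophages. Junb, a Jun protein often described as a brake on Jun, was at 22.4 and 18.2 in mCherry and 26.7 and 23.8 in Hevin macrophages, against 48.5 and 47.9 and 54.2 and 48.8 in the microglia of the same libraries. It fell by 1.29 ± 0.08 in log2 (edgeR adjusted p = 1.42e-08). Atf3, a stress-induced repressor of the family, fell by 1.12 ± 0.17 (adjusted p = 7.81e-05), from 6.37 to 8.57 in microglia to 3.11 to 4.55. Egr1 (log2 0.31) and Nr4a1 (−0.39) did not pass (adjusted p = 0.123 and 0.223), although Egr1 passed with total-count scaling (0.46, adjusted p = 0.0333, where the median of all genes was 0.12) and without Hevin replicate 2 (adjusted p = 0.0437). Altogether 6 of 10 members passed as higher, against 27.8% of 15102 genes, and 2 as lower, against 29.3%. The median log2 fold change was 0.63 for the members and −0.03 for all genes.

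Apoe-high cells, nearly all of them in Hevin libraries, had more Fos and Dusp1 and less Egr1 than microglia, while Jun, Junb and Jund did not pass the test (log2 −0.06, −0.12 and 0.17). In the Hevin libraries Dusp1 was at 24.4 and 22.2 CPM in Apoe-high cells against 13.8 and 9.65 in microglia, and Fos at 6.83 and 5.77 against 2.52 and 5.85. Over the 4 libraries Dusp1 rose by 1.2 ± 0.15 in log2 (edgeR adjusted p = 1.79e-07) and Fos by 0.96 ± 0.29 (adjusted p = 0.0104, or 0.0535 without the library block). The plain Fos level of Hevin replicate 2 was slightly lower in Apoe-high cells than in microglia. In the mCherry libraries, with 82 and 43 such cells, Dusp1 was at 77.7 and 12.7 and Fos at 31.1 and 12.7. For this class 3 UMIs amount to 7.77 CPM in mCherry replicate 1 and to 12.7 CPM in mCherry replicate 2. The levels of mCherry replicate 2 thus rest on very few UMIs, which limits any comparison of the 2 libraries. Apoe-high cells of the mCherry libraries carried more Spp1 (404 and 939 CPM, against 75.6 and 60.5 in Hevin), and P2ry12 ran from 924 to 1229.6 over the 4 libraries.

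Egr1 fell by 0.98 ± 0.21 (adjusted p = 0.000451, lower in 3 of 4 libraries), with 3.28 and 3.75 CPM in Hevin Apoe-high cells against 5.84 and 9.40 in Hevin microglia. Atf3 rose by 0.63 ± 0.17 (adjusted p = 0.00357) and Ier2 by 0.52 ± 0.18 (adjusted p = 0.0247), each higher in 3 of 4 libraries. These 3 calls rest on the Hevin libraries: without Hevin replicate 1 or Hevin replicate 2 none of Egr1, Atf3 and Ier2 passed (adjusted p from 0.175 to 0.725), and DESeq2 called Fos and Dusp1 alone (19.7% of genes in that fit). Fosb (−0.67, adjusted p = 0.278) and Nr4a1 (0.60, adjusted p = 0.102) did not pass over the 4 libraries. Within the Hevin libraries, chosen after the cell numbers were seen, 7 members passed, adding Jund (0.24, adjusted p = 0.00207) and Nr4a1 (0.75, adjusted p = 0.00398), where 42.9% of 16004 genes passed in either direction. Over the 4 libraries 4 of 10 passed as higher and 1 as lower, where 15.2% of 16596 genes passed as higher and 18.1% as lower. The median log2 fold change was 0.34 for the members and −0.04 for all genes.

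**Figure D3:**
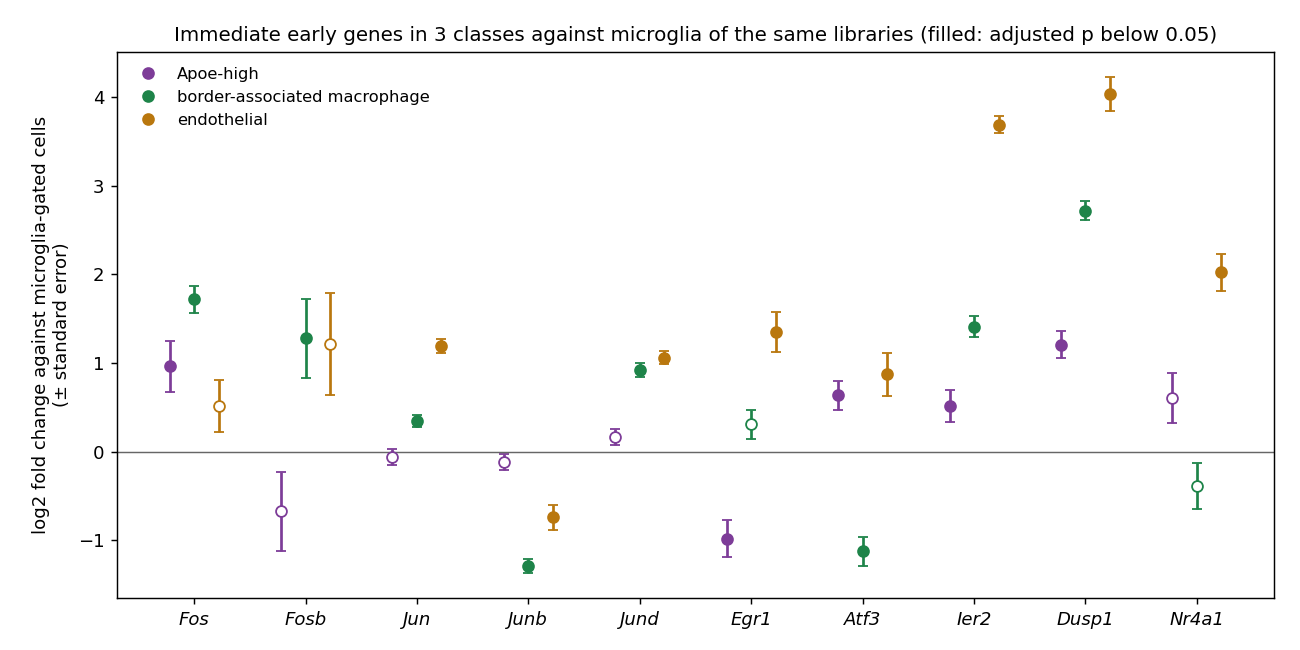
Log2 fold change (± standard error) of each gene in Apoe-high, border-associated-macrophage-gated and endothelial-gated cells against microglia-gated cells of the same libraries. Filled points passed an adjusted p of 0.05, and open points did not. Dusp1 is above 0 in the 3 classes (1.2, 2.72 and 4.03), and Junb passed as lower in macrophages and endothelial cells.

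Myeloid cells high in MHC class II genes, with 107 to 265 cells a library, are given as levels without a test. Their Atf3 was at 44.0 and 41.2 CPM for mCherry and at 39.3 and 30.3 CPM for Hevin. All 4 values are above every value of Atf3 in microglia, border-associated macrophages and endothelial cells. Fosb ran from 2.54 to 8.0, Jund from 102 to 130 and Egr1 from 16.9 to 36.2. These cells carried 897 to 1042 CPM of Ccr2, a receptor of monocyte-derived and dendritic cells, and had median depths of 4787 to 6750 UMIs.

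The members were not spread evenly over microglia. A few microglia-gated cells carried high Ccl3 and Ccl4, which encode chemokines (at least 1500 CPM of the pair): 54 and 44 cells for mCherry and 23 and 25 for Hevin, 0.351% to 0.470% of microglia. Over all classes 88 cells lay within a factor of 1.2 of that threshold. In summed RNA, Egr1 and Atf3 were far higher in these cells than in the other microglia of each library. Most of these cells held no Egr1 UMI. Egr1 was found in a mean of 29.4% of them for mCherry and 25.0% for Hevin, against 2.20% and 1.76% of the others. Atf3 was found in 45.6% and 33.0%, against 2.21% and 1.70%. The sums rest on 49, 50, 14 and 19 UMIs of Egr1 and on 46, 43, 11 and 23 of Atf3. Egr1 was at 257 and 265 CPM in mCherry and at 282 and 186 in Hevin Ccl3/Ccl4-high cells, against 6.07, 7.85, 4.93 and 8.52 in the others. The 2 kinds of cell did not overlap, and the log2 fold change was 5.04 ± 0.27 (edgeR adjusted p = 1.91e-76). Atf3 was at 241, 228, 222 and 226 against 7.05, 6.85, 5.66 and 7.49, a log2 fold change of 4.95 ± 0.27 (adjusted p = 1.67e-71). The values of the 4 libraries lie close together, in mCherry and in Hevin alike. With 3 residual degrees of freedom, p-values this small rest on a spread pooled over all genes. They do not measure the spread of each gene between libraries.

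The other members that passed rose less in these cells. Ier2 rose by 2.83 ± 0.45 on the log2 scale, Jun by 1.15 ± 0.24 and Junb by 1.14 ± 0.24, each in 4 of 4 libraries. Jun stood at 115 and 133 CPM in mCherry and 121 and 98.1 in Hevin Ccl3/Ccl4-high cells, against 45.6 to 52.8 in the others. Fos was at 31.4, 37.2 and 49.1 in 3 libraries, from 5 to 7 UMIs each, and at 0 UMIs in Hevin replicate 1, where 3 UMIs would have been 60.4 CPM. Its log2 fold change was 2.95 ± 0.57 (edgeR adjusted p = 2.28e-05). Nr4a1 gave 3.13 ± 0.71 (adjusted p = 0.000678) from 2, 2, 3 and 4 UMIs, and lost the call without Hevin replicate 1 (adjusted p = 0.0673), without Hevin replicate 2 (0.0882) or among cells with 3000 or more UMIs (0.828).

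Jund (log2 0.84, adjusted p = 0.0559) and Dusp1 (0.77, adjusted p = 0.598) did not pass, and Dusp1 had 3, 5, 2 and 0 UMIs in these cells. Jund passed with total-count scaling (0.95, adjusted p = 0.021), without Hevin replicate 1 (0.93, adjusted p = 0.0305), and with gates 1.5 times lower (0.77, adjusted p = 0.0145). Fosb had 0 UMIs in the Ccl3/Ccl4-high cells of all 4 libraries, which allows up to 15.7 and 15.9 CPM in mCherry and 60.4 and 29.4 in Hevin, and was not tested. So 7 of 9 tested members passed as higher, where 1.96% of 13638 genes did. The median log2 fold change was 2.83 for the members and −0.19 for all genes. With gate thresholds 1.5 times higher, 2 libraries kept at least 20 such cells, and Egr1 and Atf3 alone passed (0.245% of 15095 genes did).

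P2ry12, a gene of the microglial gate and so high in both kinds of cell by selection, was at 4279 and 4396 CPM in mCherry and 3121 and 3472 in Hevin Ccl3/Ccl4-high cells, against 5424, 5499, 4324 and 4802 in the others. Their median depths, 3231, 3898, 1908 and 3718 UMIs, lay beside 3271, 3955, 2080 and 3296 in the others, and their median mitochondrial shares ran from 3.26% to 3.81%. The mitochondrial shares of the others ran from 2.80% to 4.07%.

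**Figure D4:**
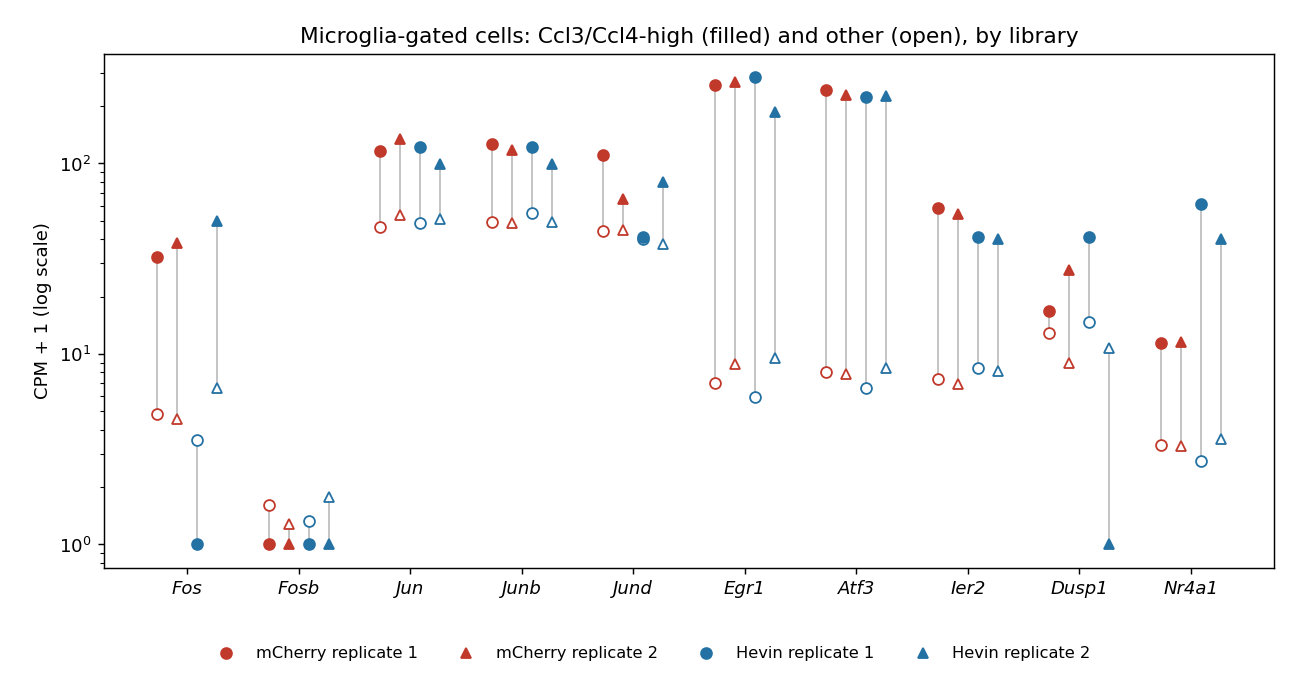
CPM plus 1 (log axis) of each gene in Ccl3/Ccl4-high microglia-gated cells (filled) and in the other microglia-gated cells (open), joined within a library. Egr1 and Atf3 rise from 4.93 to 8.52 and from 5.66 to 7.49 to at least 186 and 222 in every library, and Fosb is at 0 UMIs in the filled points.

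A small fraction of microglia held a sizeable share of the microglial Egr1 and Atf3 RNA. In mCherry replicate 1, 49 of 378 Egr1 UMIs in microglia lay in Ccl3/Ccl4-high cells, 12.96% (exact 95% interval 9.75 to 16.8). The Egr1 share was 13.7% (10.4 to 17.7) in mCherry replicate 2, 15.9% (8.98 to 25.3) in Hevin replicate 1 and 9.84% (6.03 to 14.9) in Hevin replicate 2. For Atf3 the shares were 10.7% and 13.6% in mCherry and 11.5% and 13.1% in Hevin. Jun, Junb and Jund had 0.338% to 1.17% of their microglial UMIs in these cells. The intervals treat each UMI as independent, although several UMIs lay in the same cell. They leave out the spread between cells and between libraries and may be too narrow.

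**Figure D5:**
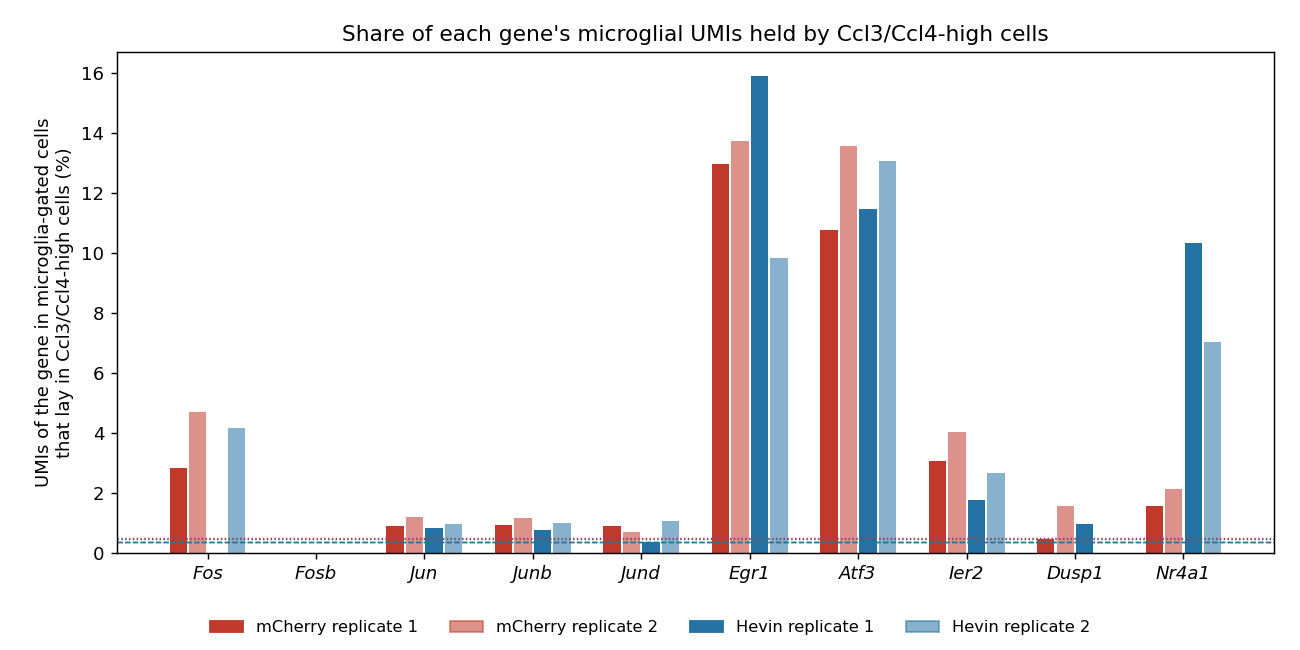
Percentage of each gene's UMIs in microglia-gated cells that lay in Ccl3/Ccl4-high cells, with a bar for each library. The dashed and dotted horizontal lines give the percentage of microglia-gated cells that were Ccl3/Ccl4-high in replicates 1 and 2 (0.351% to 0.470%). The bars of Egr1 and Atf3 lie between 9.84% and 15.9%.

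Within single microglia several members were found more often beside an Egr1 UMI. Of microglia with an Egr1 UMI, 7.90% (23 of 291, exact 95% interval 5.08 to 11.6) and 7.03% also held an Atf3 UMI in the mCherry libraries, and 8.20% and 5.70% did so for Hevin. Among microglia without an Egr1 UMI the Atf3 shares were 2.12%, 2.43%, 1.24% and 2.25%. Fos was found in 4.47%, 7.03%, 3.28% and 9.49% of cells with an Egr1 UMI, against 1.26%, 1.27%, 0.549% and 1.74% of those without, in the order mCherry 1, mCherry 2, Hevin 1 and Hevin 2. Ier2 (4.43% to 9.28% against 1.62% to 2.50%), Jun (16.4% to 26.2% against 9.91% to 18.6%), Junb (18.03% to 25.4% against 11.2% to 16.6%) and Dusp1 (3.80% to 11.5% against 2.98% to 4.05%) also had the higher share beside Egr1 in 4 of 4 libraries. Jund had it in 3 of 4, with 12.9% against 16.3% in mCherry replicate 2. Small counts limit these shares. For Dusp1 the exact 95% interval held the share without Egr1 in mCherry replicate 1 (2.65 to 7.94) and Hevin replicate 2 (1.41 to 8.08). The same was so for Ier2 and Jund in both Hevin libraries, and for Fos, Jun and Junb in Hevin replicate 1. Ccl3/Ccl4-high cells were not set apart here. The median depths of cells with and without Egr1 were 3325 and 3267 UMIs in mCherry replicate 1, and they differed by no more than 221 UMIs in any library. Even so, most cells with an Egr1 UMI had no Atf3 UMI at this depth.

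In Apoe-high cells of the Hevin libraries the Ccl3/Ccl4-high state is given without a test. It comprised 34 and 16 cells, in which Atf3 was at 139 and 196 CPM (10 and 13 UMIs), against 10.1 and 11.4 in the other Apoe-high cells. Egr1 was at 41.8 and 30.2 there, from 3 and 2 UMIs. Apoe-high cells with high Spp1 and Gpnmb, 96 and 50 cells, had Atf3 at 34.6 and 58.6 against 10.2 and 11.5 in the rest, and Jun at 50.4 and 54.4 against 46.8 and 48.4. Atf3 was higher in both states than in the remaining Apoe-high cells, on 10 to 14 UMIs each.

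Other immediate early genes, a list of 33, were counted in the same fits. In Ccl3/Ccl4-high microglia 11 of 28 tested passed as higher and 3 as lower, against 1.96% and 2.11% of all genes. Egr3, a relative of Egr1, gave a log2 fold change of 7.50 ± 0.45, with mean levels of 0.466 in the other microglia and 85.2 TMM-scaled CPM in these. Egr2 gave 5.88 ± 0.56, Gadd45b, a stress-response gene, 3.87 ± 0.60, and Ier3, an early gene linked to survival signalling, 3.19 ± 0.30. Zfp36, which encodes an mRNA decay factor, gave 1.27 ± 0.20. Dusp6, a phosphatase of ERK, fell by 0.75 ± 0.20, and Cebpd, a leucine zipper factor, by 1.45 ± 0.38. Of 13 cytokine and NF-kappa-B feedback genes, 8 of 12 tested passed as higher. Ccl3 and Ccl4 chose the cells, and without them 6 of 10 passed. Of 14 heat shock genes 1 of 13 tested passed as higher, and of 20 genes of upstream signalling (kinases and the serum response and CREB factors) 1 passed as higher and 2 as lower.

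In endothelial cells 13 of 28 tested genes of the same list passed as higher and 12 as lower, where 30.2% and 33.9% of all genes did. Klf2, a flow-responsive factor of endothelium, gave a log2 fold change of 5.47 ± 0.12 and Maff, a small Maf protein, 4.83 ± 0.17. Ccn1, a matrix-associated early gene, gave 4.45, Gadd45b 3.29 and Klf4 2.90. Zfp36, Rhob, Dusp6 and Zfp36l2 fell by 0.83, 0.92, 1.13 and 1.52. Cebpb, a leucine zipper factor of myeloid cells, fell by 2.08 ± 0.18. In border-associated macrophages 13 of 27 passed as higher and 8 as lower, where 27.8% and 29.3% of all genes did. Ccn1 gave 5.32 ± 0.17 and Klf4 2.80 ± 0.06, followed by Klf2 at 2.33, Fosl2 at 1.57 and Klf10 at 1.15. Rhob, a small GTPase, fell by 1.30 ± 0.05, Btg2 by 1.12, Ier5 by 0.84, Btg1 by 0.71 and Zfp36 by 0.37. In Apoe-high cells 7 of 32 passed as higher and 9 as lower, where 15.2% and 18.1% of all genes did. Ccn1 gave 3.43 ± 0.25, Ier3 1.04 and Klf6 0.82. Rhob fell by 1.11 ± 0.08, Trib1 by 0.89, Btg2 by 0.69, Ier5 by 0.52 and Btg1 by 0.35.

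Between Hevin and mCherry over all kept cells, 4 of 32 tested genes of that list passed as higher (Klf6, Ccn1, Ier3 and Cebpb) and 3 as lower (Klf2, Rhob and Trib1), where 11.1% of all genes passed in either direction. Klf6, a zinc finger factor, gave the largest of these, 0.59 ± 0.08 (edgeR adjusted p = 0.00613), with means of 76.4 and 115 TMM-scaled CPM. Ccn1, Ier3 and Cebpb gave 0.49, 0.46 and 0.42, and Klf2, Rhob and Trib1 fell by 0.38, 0.49 and 0.52. In microglia-gated cells none of 32 tested genes of the list passed by edgeR. The 20 signalling genes gave 0 calls over all kept cells, the 18 other leucine zipper genes 4 higher, the 14 heat shock genes 1 higher and 1 lower, and the 12 genes of AU-rich element mRNA decay 1 lower. Of the 13 cytokine and feedback genes 7 were higher and 1 lower over all kept cells.

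The mean level of the 10 members was lowest in microglia and astrocyte-gated cells and highest in endothelial and MHC class II-high cells. On the scale of log2 (CPM plus 1), it ran from 3.31 to 3.52 in the microglia of the 4 libraries and from 3.99 to 4.07 in border-associated macrophages. Apoe-high cells of the Hevin libraries were at 3.62 and 3.60. Endothelial cells ran from 4.69 to 5.29 and MHC class II-high cells from 4.73 to 5.18, and these 2 ranges overlap. Over 21 sums of a class in a library with at least 50 cells, the genes whose ranks were most like this mean, of 9731 with at least 10 CPM, were St3gal1 (Spearman rho 0.964), Anxa1 (0.947) and Crybg1 (0.942). They are followed by Cast, Mob3b, 1700084F23Rik, Kif23, Slc66a2, Emd and Iqgap1, with rho from 0.930 to 0.936. The sums share libraries and depth and fall into a few classes, so these values are a description.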

How the data were processed

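Raw UMI counts per gene and barcode were deposited by the authors for each of 4 libraries. The genome build is mm10 per the submitters' processing notes. Not given in the sources used here: aligner, annotation, strand use and cell calling. The lowest barcode held between 965 and 2993 UMIs by library, so admission depth differed.

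A kept barcode had 500 or more UMIs, 300 or more genes and no more than 10% mitochondrial UMIs. No doublet caller was run. Cells over more than 1 gate were left unclassed, except that passing the Apoe gate removed a cell from the microglial class only. An alternative left out the 5% of cells with most UMIs. Raw counts were summed per library and class (at least 20 cells) and tested with edgeR 4.0.16's quasi-likelihood test (R 4.3.3, TMM, filterByExpr, Benjamini-Hochberg over all genes tested, adjusted p below 0.05). Standard errors are the fold change over the root of F. Hevin comparisons used group alone, class comparisons the library as a block. DESeq2 1.42.0 was an alternative, the others being scaling, filters, depth, gates and libraries left out. The code was tested on simulated data.

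All 10 members are named in every comparison, and of the other immediate early list at most 5 genes in each direction, with the largest change among called genes whose mean reached 10 CPM and whose classes do not overlap. Members and lists were chosen with earlier results of these data known. The replicates were not duplicates: their counts differed by 21.33 (mCherry) and 27.87 (Hevin) in chi-square per degree of freedom. Each library's depth limits its precision to that of its counts.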

Additional observations from a re-analysis of the deposited data

How the results depend on the processing

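Over all kept cells, the count of members called between Hevin and mCherry (1) became 0 with total counts only (12.6% of all genes passed). It became 0 at 3000 or more UMIs per cell (7.07% of genes passed). With the replicate number as a replicate block it became 5 (Fos, Junb, Atf3 and Dusp1 higher, Egr1 lower), where 23.7% of all genes passed. Same-numbered libraries of the groups had deviations that correlated at 0.3567 over 19119 genes. There are 2 pairs and no label ties them, so whether they share more than a number is not known. The block changed no other count of members called. When a library was left out of a Hevin comparison, a lone library was assumed to vary like the rest, so those counts are left out here. In class comparisons without 1 library, members called ran from 2 to 7 for Apoe-high cells, where 14% to 37.8% of all genes passed. They ran from 7 to 9 for macrophages (51.5% to 53.3% of genes) and from 8 to 8 for endothelial cells (58.1% to 61.5%). For Ccl3/Ccl4-high cells they ran from 6 to 7 (2.02% to 3.68%). DESeq2 gave 2 for Apoe-high cells (19.7% of genes), and gates 1.5 times higher gave 2 for Ccl3/Ccl4-high cells (0.245% of genes). Without thinning, 3 members had the higher share in Hevin instead of 6.

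Of 710 alternative values of single members, 635 kept direction and side of the threshold, 26 lost the call, 23 gained it and 26 changed sign, and none of those 26 was a called value. Leaving out 1 library at a time gave ranges, over all kept cells, of −0.0265 to 0.425 for Fosb, −0.0534 to 0.163 for Jun and −0.0559 to 0.0892 for Jund. Total counts gave Jun −0.0653 and Jund −0.0992, and leaving out Apoe-high cells gave Egr1 0.073. In microglia the range of Fosb was −0.384 to 1.10. In endothelial cells it was −0.194 to 0.0550 for Jun, −0.562 to 1.44 for Egr1 and −0.125 to 0.768 for Dusp1, and for the Fosb difference between macrophages and microglia −1.70 to 0.116. For Hevin against mCherry within macrophages, Atf3 was 0.0058 without the deepest 5% of cells. Against microglia, Jun in Apoe-high cells was 0.0143 without the deepest cells, 0.0034 with gates 1.5 times higher, 0.0491 in Hevin libraries alone and −0.287 to 0.0284 without a library. Dusp1 was −0.21 in Ccl3/Ccl4-high cells with gates 1.5 times higher. Differences in shares (percentage points) became 0.0051 for Fosb and −0.0901 for Junb at 2000 UMIs, and −2.14 for Junb, −0.0051 for Atf3 and −0.0030 for Nr4a1 unthinned. The cause was not tested. The few cells with high Ccl3 and Ccl4, and the 82 and 43 Apoe-high cells of the mCherry libraries, limit precision.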
